A study of Drosophila melanogaster with 2 samples.

Results

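Peaks of GFP-tagged Dif in Drosophila larvae were examined at 9 genes of insulin, TOR and nutrient stress signalling: Ilp6, InR, chico, S6k, Thor, foxo, REPTOR, sima and Sesn. They were taken by name, 9 of the 13945 protein-coding genes on the chromosome arms, and a gene's window was its body with 5 kb each side. The samples form 1 group of 2 biological replicates, numbered 3 and 4, of whole wandering larvae of the third instar and of both sexes, of unknown age, from 1 transgenic line that stably carries Dif with GFP at its C terminus. Chromatin was precipitated with an antibody to GFP and sequenced (ChIP-seq). The labels do not give the promoter that drives the transgene or the state of the native Dif gene, and signal from whole animals is a mixture of all tissues. Control libraries and other stages were not analysed here. The data therefore give where peaks of tagged Dif lay at these genes and how alike the replicates were there, and peak lists carry no read counts, so the depth behind each value is unknown.

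Insulin-like peptides bind the insulin receptor, and the signal passes through the adaptor Chico, PI3-kinase and Akt, which keeps the transcription factor FOXO out of the nucleus. Akt and amino acids together raise the activity of the kinase TOR, which promotes growth through S6 kinase and by restraining the translation inhibitor 4E-BP, the product of Thor, while the transcription factor REPTOR becomes active when TOR is low. Dif is an NF-κB factor of the Toll pathway, and Toll signalling in the larval fat body is known to lower insulin signalling and growth, partly through the peptide Ilp6.

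The sequences of 8 summit windows, chosen after their values and motifs were seen, show what several of these places share, a run of GA or TC dinucleotides at or beside the summit. They hold the strongest summits of InR, Thor, foxo, REPTOR and sima, the upstream summit of Ilp6 and further summits of InR. They are from the RefSeq copy of the Release 6 assembly (dm6 coordinates), 100 bases each side of the summit, shortened where an untranslated region begins. Capitals mark GAGAGAG or its reverse complement CTCTCTC. In the sima window, which holds neither, they mark the shorter GAGAG or CTCTC, and the InR coding window is shown as a summit with no such run.
Ilp6 upstream, chrX:2336381-2336581, plus strand: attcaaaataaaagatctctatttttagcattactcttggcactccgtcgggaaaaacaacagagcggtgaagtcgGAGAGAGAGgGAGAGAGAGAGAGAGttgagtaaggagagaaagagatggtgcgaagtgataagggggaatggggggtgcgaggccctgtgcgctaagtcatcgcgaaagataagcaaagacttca
InR intron near the first start site, chr3R:21618361-21618561, plus strand: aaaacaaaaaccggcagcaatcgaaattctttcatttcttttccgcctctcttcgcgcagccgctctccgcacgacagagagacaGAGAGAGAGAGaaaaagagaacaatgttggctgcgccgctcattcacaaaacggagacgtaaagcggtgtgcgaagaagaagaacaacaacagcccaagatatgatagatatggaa
InR intron, central cluster, chr3R:21605714-21605914, plus strand: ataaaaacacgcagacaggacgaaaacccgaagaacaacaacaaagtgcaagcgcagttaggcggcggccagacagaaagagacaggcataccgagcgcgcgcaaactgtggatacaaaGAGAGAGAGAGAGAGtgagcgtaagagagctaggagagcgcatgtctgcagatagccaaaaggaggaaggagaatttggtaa
InR coding exon, chr3R:21580199-21580399, plus strand: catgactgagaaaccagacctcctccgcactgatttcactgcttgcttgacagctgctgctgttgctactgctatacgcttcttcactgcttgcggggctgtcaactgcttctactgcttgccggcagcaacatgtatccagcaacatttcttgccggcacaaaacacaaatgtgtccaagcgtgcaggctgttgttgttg
Thor upstream of the start site, chr2L:3478280-3478433, plus strand: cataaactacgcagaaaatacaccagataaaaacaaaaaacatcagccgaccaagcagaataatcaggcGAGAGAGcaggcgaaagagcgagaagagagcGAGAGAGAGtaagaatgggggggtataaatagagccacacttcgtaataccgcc
foxo intron, chr3R:14057521-14057721, plus strand: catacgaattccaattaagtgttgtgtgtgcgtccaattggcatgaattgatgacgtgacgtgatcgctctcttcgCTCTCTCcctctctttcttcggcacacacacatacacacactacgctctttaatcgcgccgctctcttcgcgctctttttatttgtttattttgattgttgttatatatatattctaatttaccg
REPTOR intron, chr3R:24565769-24565969, plus strand: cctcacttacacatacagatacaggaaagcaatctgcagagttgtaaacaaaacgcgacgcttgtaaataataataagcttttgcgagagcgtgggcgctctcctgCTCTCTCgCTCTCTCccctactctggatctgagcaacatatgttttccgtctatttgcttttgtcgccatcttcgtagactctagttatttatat
sima intron, chr3R:30099323-30099519, plus strand: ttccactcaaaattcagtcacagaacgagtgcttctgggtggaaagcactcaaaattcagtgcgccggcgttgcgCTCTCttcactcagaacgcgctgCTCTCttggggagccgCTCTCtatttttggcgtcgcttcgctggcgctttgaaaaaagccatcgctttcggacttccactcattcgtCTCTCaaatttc

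In the authors' list of peaks thresholded by irreproducible discovery rate (IDR), 7 of the 9 genes had a summit, the base where a peak is highest. InR, REPTOR, foxo, Sesn, sima, Ilp6 and Thor had 9, 8, 4, 3, 2, 2 and 1 IDR summits in their windows, 29 in all, while chico and S6k had none. Among all protein-coding genes, 38.4% had an IDR summit in a window made the same way. The 9 genes are longer than most, with a median window of 30.9 kb against 12.2 kb over all protein-coding genes, and a long window has more room for a summit. Per length, their windows held 0.959 IDR summits per 10 kb, against 0.406 over the windows of all protein-coding genes and 0.312 over the arms as a whole. By gene this density ran from 0 at chico and S6k and 0.272 at sima to 2.25 at REPTOR. InR and REPTOR held most of the summits. Within 500 bp of any of their start sites, 7 of the 9 genes had an IDR summit, beside 15.3% of protein-coding genes. This count favours genes with several start sites, and InR and REPTOR have 4 each, so it does not set gene structure aside. By single start sites, 13 of the 21 annotated for the 9 genes had an IDR summit within 500 bp, beside 15.0% of all annotated start sites of protein-coding genes. The members were chosen with earlier results of these data known, so these shares describe the 9 genes and were not tested.

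Signal, the authors' own value per peak, ran from 89.2 to 562 over the 29 summits, with a median of 186, against a median of 134 over the whole IDR list. The pooled relaxed list, of peaks and background regions called on both replicates together, holds the whole IDR list. The lowest signal of the IDR list and the highest signal of the pooled list outside it were both 83.9. To the digits given, the IDR list was thus the top of the pooled list by signal. Being in it does not show that a single peak was found in each replicate. Of the 29 summits, 21 (72.4%) were in the stronger part of the IDR list, which holds 50% by construction. Introns of the named gene held 15 of them, 5′ untranslated regions (UTRs) 6 and coding sequence 1, and 7 lay upstream. Upstream here means ahead of the whole gene body. Summits just ahead of a later start site therefore count as intron. They include those 97 bp ahead of one at sima, 298 bp at foxo and 301 bp at REPTOR. Of the 29, 12 (41.4%, Wilson 95% interval 25.5% to 59.3%) lay within 500 bp of any start site, against 59.1% of the IDR list. The share of intron summits over the IDR list was not computed. Intervals here cover counting error only, and summits of 1 gene are not independent of each other.

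**Figure D1:**
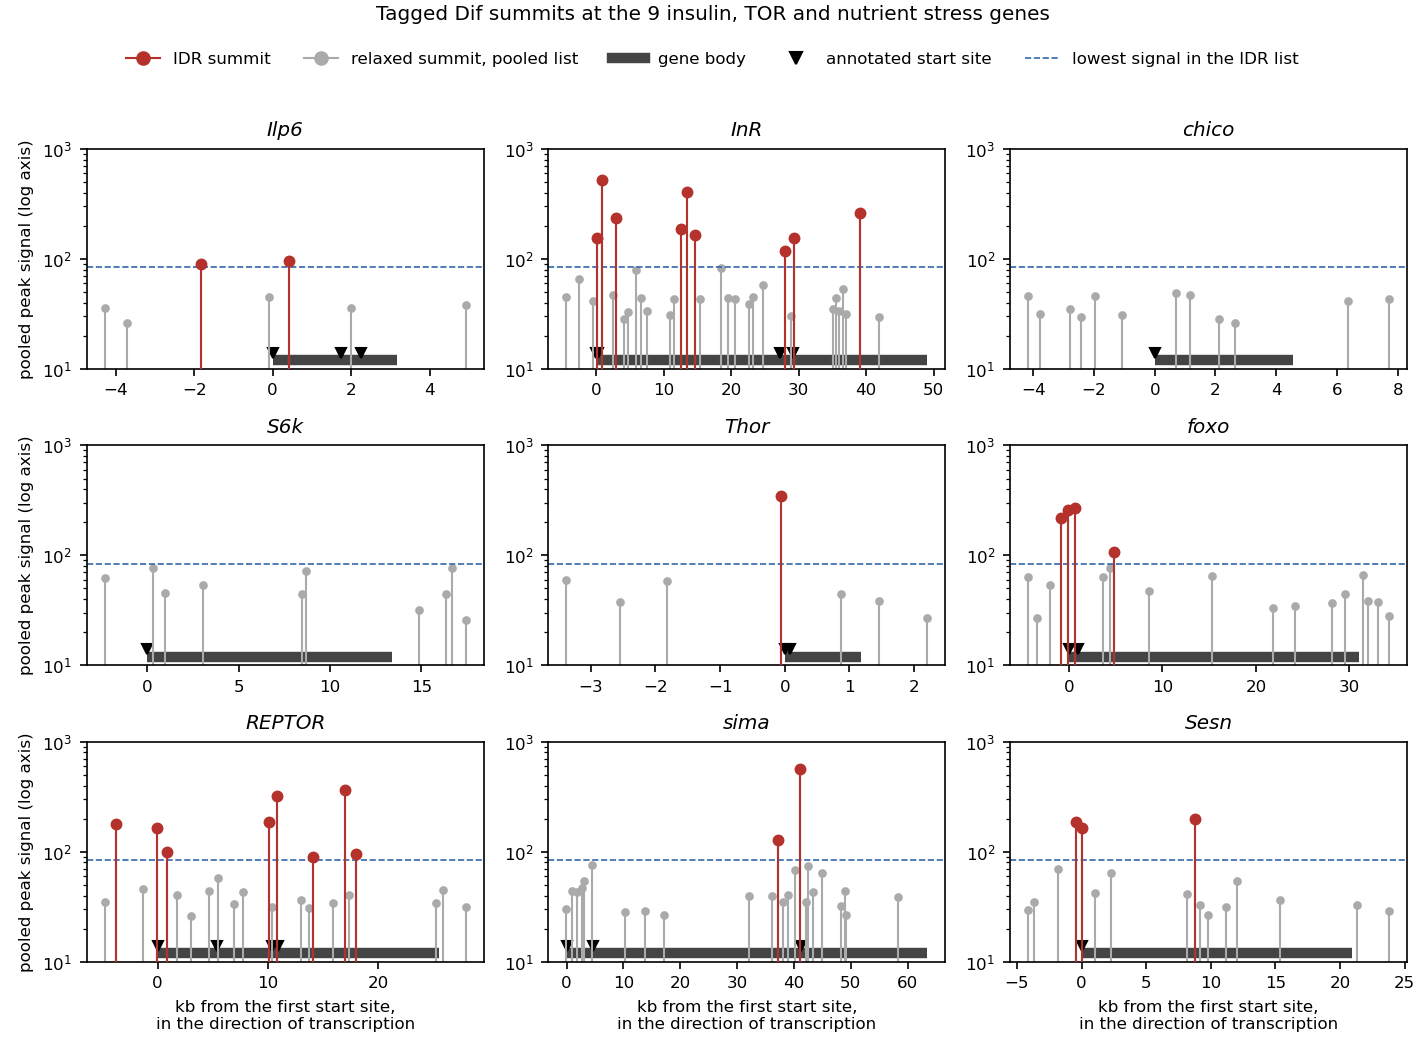
Pooled peak signal (log axis) against distance in kb from the first start site in the direction of transcription, for each of the 9 genes. Red points are IDR summits and grey points are other summits of the pooled relaxed list, the bar is the gene body, triangles are annotated start sites and the dashed line is the lowest signal of the IDR list, 83.9. Red points stand at the start sites of foxo, Thor and Sesn and in 4 parts of InR, and none is seen at chico or S6k.

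Ilp6 (FBgn0044047, X at 2331493 to 2334658, minus strand) encodes the insulin-like peptide that the fat body releases, and its strongest peak was weaker than the strongest peak of each of the other 6 genes with IDR summits. One summit lay in the 5′ UTR at 2334231, 427 bp inside the first start site, with a pooled signal of 96.2. Its signal was 73 at rank 3533 in replicate 3 and 12.6 at rank 13205 in replicate 4. The other lay 1823 bp upstream at 2336481, in the run of GA dinucleotides printed above, with a pooled signal of 89.6. Its signal was 65.3 at rank 4134 in replicate 3 and 25.2 at rank 4856 in replicate 4. Both summits were near the lower end of the IDR list, where the lowest signal was 83.9, and the one in the UTR was far weaker by rank in replicate 4. Signals of separate lists are on separate scales, so the replicates are compared by rank among the 30000 regions of each list.

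InR (FBgn0283499, 3R at 21570248 to 21619321, minus strand) encodes the insulin receptor, which FOXO is known to activate in flies. It carried 9 IDR summits, with signals from 117 to 523, and 0.258% of protein-coding genes had as many or more. By density, with 1.52 per 10 kb, 8.39% of protein-coding genes were as dense or denser. The summits fell into a group at the first start site, a group in the middle of the long intron, a group at the later start sites and a lone one in coding sequence.

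At the first InR start site, the strongest of the 9 lay in the intron at 21618461, 575 bp from a start site, with a pooled signal of 523 and rank 155 of the IDR list. Replicate 3 gave it a signal of 435 at rank 135, with the summit at the same base, and replicate 4 gave 110 at rank 303, with the summit at 21618449. This was among the strongest peaks of both replicates. A second summit lay 43 bp inside the first start site, in the 5′ UTR at 21619278, with a pooled signal of 154 and ranks of 1804 and 2784 in replicates 3 and 4. The intron also held a summit at 21616427, with a pooled signal of 234, which ranked 1195 in replicate 3. In replicate 4 the nearest summit, at 21616515, ranked 5795, but a much stronger one lay outside the match distance of 100 bp, at 21616304, with a signal of 97.9 and rank 415. Both replicates thus had a peak in this stretch, at places that differed. Its nearest start site, 687 bp from the pooled summit, was that of the non-coding RNA gene lncRNA:CR44034, which begins within InR.

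The group in the middle of the InR intron had 3 summits with gaps of 1057 and 1006 bp between them, 12216 to 13222 bp from the nearest InR start site. The central one, at 21605814, had a pooled signal of 405 and rank 275, with 305 at rank 295 in replicate 3 and 103 at rank 362 in replicate 4. Its neighbours at 21604757 and 21606820 had pooled signals of 166 and 186. The first of them ranked 1576 in replicate 3 and 2748 in replicate 4, and the second 1388 and 717. All 3 windows held GAGAGAG, and all 3 summits were seen in both replicates.

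Toward the later InR start sites, a summit in the 5′ UTR at 21590082, 109 bp from the last start site, had a pooled signal of 154 and ranked 1378 in replicate 3 and 1365 in replicate 4. Within 17 bp of it lay GTAAACA, a core sequence that FOXO recognises, at 21590059 to 21590065. The summit at 21591411 in the intron, with a pooled signal of 117, had a summit of replicate 4 within 100 bp at rank 1918 and none of replicate 3. In coding sequence, at 21580299 and 9892 bp from the nearest start site, the lone summit had a pooled signal of 264. It ranked 637 in replicate 3 and 4737 in replicate 4, with signals of 210 and 25.6, so by rank it was much stronger in replicate 3. The authors' q was at most 0.01 in both replicates. Its peak was 68 bp wide, against a median of 244 bp in the IDR list.

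Neither chico nor S6k had an IDR summit. At chico (FBgn0024248, 2L at 10242512 to 10247078, minus strand), the adaptor of the receptor, the strongest region of the pooled relaxed list lay in the 5′ UTR at 10246380 with a signal of 49.3 and rank 9360. Relaxed lists hold peaks and background regions alike. The authors' q was above 0.01 for all 12 pooled regions in the chico window. In the single replicates, q was at most 0.01 for 4 of 10 regions in replicate 3 and 2 of 9 in replicate 4, and the strongest of replicate 3 lay 37 bp from the start site of me31B.

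S6k (FBgn0283472, 3L at 5797549 to 5810931, minus strand), which encodes the kinase that TOR activates, had regions just weaker than those of the IDR list. Its strongest pooled region lay in the 5′ UTR at 5810620, 311 bp from the start site, with a signal of 77.1 at rank 4707, against a lowest IDR signal of 83.9. Of the 10 pooled regions in the window, 5 had q of at most 0.01. A further region of 76.1 lay 43 bp from the start site of the neighbour Bre1. The same UTR region ranked 4017 in replicate 3, with a signal of 66.6. In replicate 4 the strongest region of the window, at rank 2045, was instead 124 bp from the start site of mad2. An intron region was held by both replicates, at 5802179 with rank 5391 in replicate 3 and at 5802205 with rank 4124 in replicate 4. Its pooled signal was 72.8, and its pooled summit was 793 bp from the start site of CG42272 and 8691 bp from that of S6k. The strongest region of the window thus differed between the replicates, while this weaker intron region was found in both.

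Thor (FBgn0261560, 2L at 3478434 to 3479612, plus strand) encodes 4E-BP, which blocks cap-dependent translation when TOR is low, is activated by FOXO in flies and was first described as induced by bacterial infection. It had a single strong summit, 54 bp upstream of its first start site at 3478380, with a pooled signal of 347 and rank 377. Replicate 3 gave a signal of 260 at rank 434 with the summit at 3478370, and replicate 4 gave 102 at rank 374 with the summit at 3478389. Both replicates placed this peak within 10 bp of the pooled summit and at like ranks. Weaker regions upstream, at 3475057 and 3476608, had pooled signals of 59.1 and 58.5 and were not in the IDR list. The second of these had a counterpart at rank 5470 in replicate 3, at 3476591, and a region at 3476732 in replicate 4 ranked 2296.

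foxo (FBgn0038197, 3R at 14056945 to 14087978, plus strand), the transcription factor that insulin restrains, had 3 summits at its start sites, with gaps of 784 and 729 bp, and a weaker one further in. The summit at 14056108, 837 bp upstream, had a pooled signal of 218, with 159 at rank 1033 in replicate 3 and 74 at rank 761 in replicate 4. At 14056892, 53 bp upstream, the pooled signal was 258, with 203 at rank 684 in replicate 3 and 53.6 at rank 1433 in replicate 4. In the intron at 14057621 it was 267, with 189 at rank 765 in replicate 3 and 75.5 at rank 719 in replicate 4. These 3 had similar signals in the pooled list and were all among the stronger peaks of both replicates. The fourth, in the intron at 14061745, had a pooled signal of 108 and ranked 2249 in replicate 3 and 8647 in replicate 4.

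REPTOR (FBgn0039209, 3R at 24557368 to 24582864, minus strand), the transcription factor that is active when TOR is low, had 8 IDR summits in a window of 35.5 kb. At 2.25 per 10 kb it was the densest of the 9 genes, and 2.82% of protein-coding genes were as dense or denser. Of its 4 start sites, 3 had a summit within 500 bp. The strongest summit was away from all of them, in an intron at 24565869, 6096 bp from the nearest start site, with a pooled signal of 368 and rank 338. It ranked 330 in replicate 3 and 326 in replicate 4, with signals of 292 and 107. The replicate 3 summit was at the same base as the pooled one, and that of replicate 4 was at 24565871. This window held both GA runs and GTAAACA, 51 bp from the summit.

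At the later REPTOR start sites, a summit in the 5′ UTR at 24572004, 39 bp from a start site, had a pooled signal of 324, and ranked 431 in replicate 3 and 1430 in replicate 4. Another in the intron at 24572796 had a signal of 187 and ranked 883 and 1111. At the first start site, the summit at 24582945 lay 81 bp upstream, with a pooled signal of 165, and ranked 2942 in replicate 3 and 907 in replicate 4. These promoter summits were found in both replicates in different order. Of the other 4, those at 24582015 and 24586654, with signals of 99.1 and 180, had no replicate 4 summit within 100 bp, and the second lay nearer to the start site of the neighbour mld, 1001 bp away. The remaining summits at 24564891 and 24568743 had signals of 94.8 and 89.2, near the lower end of the list. The first of them ranked 4463 in replicate 3 and 10596 in replicate 4, and the second 4037 and 3490.

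sima (FBgn0266411, 3R at 30058311 to 30121798, plus strand) encodes the fly HIF-α, the hypoxia transcription factor, whose activity also responds to insulin and TOR signalling. It is the longest of the 9 genes, at 63488 bp, and had only 2 IDR summits, but the stronger of these was the strongest of all 29. That summit lay in the intron at 30099423, 97 bp upstream of the last of its 3 start sites, with a pooled signal of 562 and rank 135. It ranked 169 in replicate 3 with a signal of 394 and 97 in replicate 4 with a signal of 169. A weaker summit at 30095594, 3926 bp from a start site, had a pooled signal of 129 and ranked 2865 and 2252. The first start site, 41.2 kb upstream of the last, was 5714 bp from the nearest IDR summit, and the second was 10325 bp from it. A relaxed region 167 bp from the second start site, at 30062755, had a pooled signal of 75.3 at rank 4891.

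Sesn (FBgn0034897, 2R at 23713900 to 23734846, plus strand) encodes Sestrin, which stress induces and which holds back TOR. Its 3 summits had pooled signals of 198, 187 and 166. The pair at the start site lay 460 bp upstream, at 23713440, and 8 bp inside the gene, at 23713908. The upstream one ranked 1183 in replicate 3 and 1991 in replicate 4, and the one at the start site ranked 2005 in replicate 3 and 677 in replicate 4. Both replicates thus held the pair, with the order of its members turned round. CG46429 is annotated with the same start site, so the pair cannot be assigned to 1 of these genes. The third summit lay at 23722660 in a 5′ UTR exon 8.76 kb into the gene, and ranked 1496 in replicate 3 and 398 in replicate 4.

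Most of the 29 summits were seen in each replicate. Within 100 bp lay a summit of replicate 3 for 28 of them (96.6%) and of replicate 4 for 27 (93.1%), and 26 (89.7%, Wilson 95% interval 73.6% to 96.4%) had both, beside 85.4% of the whole IDR list. When each replicate was cut to as many of its strongest peaks as the IDR list holds, 20 of the 29 (69%, interval 50.8% to 82.7%) had both, beside 54.4% of the list. Of the 26 summits found in both, 14 (53.8%) ranked higher in replicate 3, beside 57.3% of the summits of the IDR list found in both. By gene, 7 of the 9 had a summit of these strongest peaks of both replicates in the window, beside 29.8% of protein-coding genes. They were the 7 genes with IDR summits less Ilp6, whose summits fell below the cut in replicate 4, plus S6k. This count does not ask that the replicates share a place. At S6k they did not, with a peak above the cut at 5810618 in replicate 3 and peaks at 5813217 and 5802205 in replicate 4. In the relaxed lists all 9 genes had a pooled summit, beside 86.8% of protein-coding genes. Those windows held 153 pooled regions, of which 56 had q of at most 0.01, beside 27.5% of the pooled list. In replicate 3 they were 66 of 145, beside 33.6% of its list, and in replicate 4 they were 84 of 148, beside 41.7%.

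**Figure D2:**
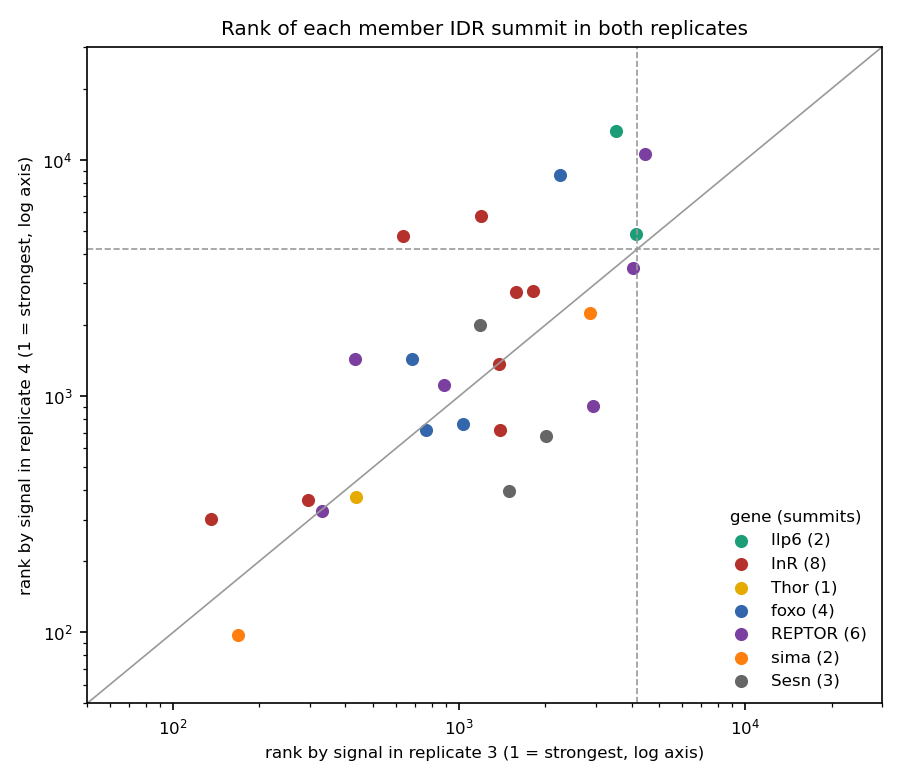
Rank by signal in replicate 3 (horizontal) and replicate 4 (vertical), both log axes, of the 26 member IDR summits that both replicates hold, coloured by gene. The solid line is equal rank and the dashed lines mark the length of the IDR list. The sima summit at ranks 169 and 97 and the InR summit at ranks 135 and 303 stand at the strong end. Summits of Ilp6, REPTOR and foxo, at 13205, 10596 and 8647 in replicate 4, stand highest above the line. The InR summits at 4737 and 5795 in replicate 4 also stand above it.

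The nearest annotated start site was that of the named gene for 23 of the 29, counting the pair at Sesn that CG46429 shares. A nearest start site does not show which gene a peak acts on. For the other 6 it was lncRNA:CR44034 within InR for 4, mld for 1 at REPTOR and lncRNA:CR45325 for 1 at Sesn. The number of summits followed no simple order of gene length. REPTOR had 8 in a window of 35.5 kb, whereas sima had 2 in 73.5 kb, or 0.272 per 10 kb.

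**Figure D3:**
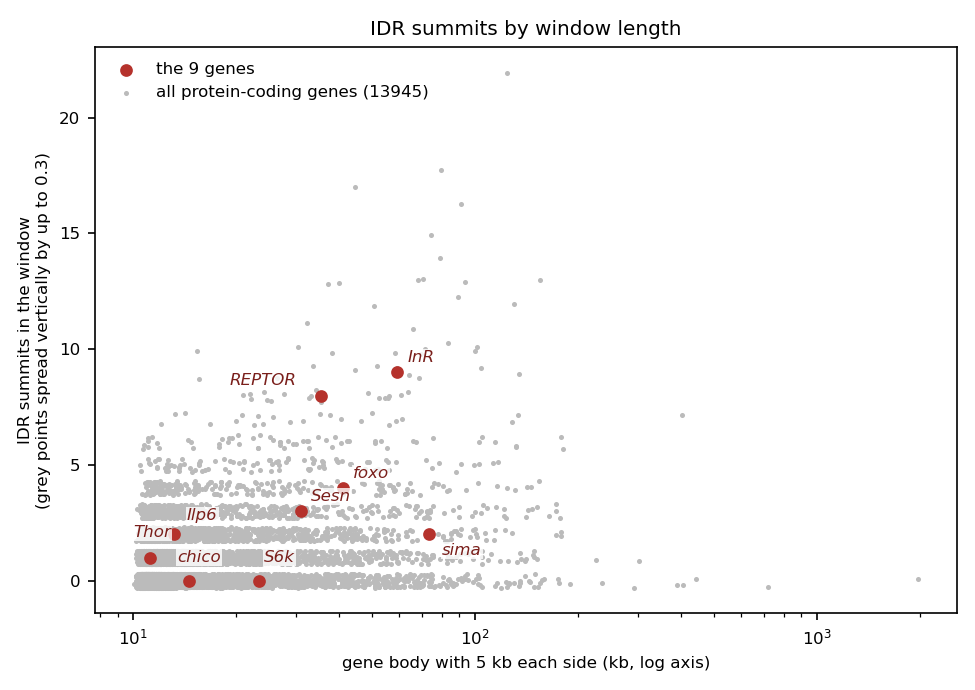
IDR summits in the window against window length in kb (log axis), for the 9 genes in red and all 13945 protein-coding genes in grey. Grey points are spread slightly in height. InR with 9 and REPTOR with 8 stand above most genes, and chico and S6k stand at 0.

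GA runs were common at the summits. GAGAGAG, searched on both strands, lay within 100 bp of 15 of the 29 summits (51.7%), beside 34.6% of all IDR summits and 3.69% of equally long windows at the first start sites of all protein-coding genes. In 12 of the 15 the nearest copy was at most 20 bp from the summit, with a median of 6 bp. Each gene with IDR summits in its window, other than sima, had at least 1 such summit. The median signal was 187 for the 15 summits with the run and 165 for the 14 without. Over the IDR list those medians were 168 and 122, so the difference at these genes went the same way and was not tested. With the shorter GAGAG, which is contained in GAGAGAG, 23 of the 29 had a match, beside 66.1% of IDR summits. This shorter run is more common, and 22.5% of the windows at first start sites held it. The strongest of the 29 summits, at sima, was among the 23, with 4 copies. Of the 124 regions of the pooled relaxed list in the windows that are not in the IDR list, 8.06% held GAGAGAG, beside 5.51% of all such regions.

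The κB sequence, searched as the broad NF-κB motif on both strands, lay within 100 bp of 0 of the 29 summits, beside 0.862% of all IDR summits and 1.10% of windows at first start sites. Within 250 bp there was 1 match, 172 bp from the InR summit at 21591411. GTAAACA was found at 2 of the 29, the InR and REPTOR summits named above. That is 6.9%, beside 4.24% of all IDR summits and 6.6% of windows at first start sites. The core ACGTG that HIF proteins recognise, which is also part of CACGTG, was found at 7, none of them the strong sima summit. This share was 24.1%, beside 19.7% of all IDR summits and 17.8% of windows at first start sites. CACGTG, the E-box of Myc and related factors, was found at 1 and CAGCTG at 5, TGANTCA (AP-1) and CAGGTA (Zelda) at 1 each, and the DNA replication-related element (DRE) at 0, beside 3.47%, 13.6%, 3.57%, 5.77% and 1.63% of all IDR summits. These are matches of letters, and a window without one says only that those letters are not in it.

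Among 58 other genes of the same pathways, 37 (63.8%) had an IDR summit in the window, beside 38.4% of protein-coding genes, and 20 had one within 500 bp of a start site, beside 15.3%. Their windows had a median of 14.7 kb and held 0.77 summits per 10 kb. The roles hold few genes each and were not tested against each other.

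Of the insulin-like peptides, 2 of 7 had a summit. Ilp8, which is released by damaged discs, had one 149 bp from its start site with a signal of 133, while the stronger one in the window of Ilp7 (327) was at the neighbour Mnt. Ilp1 to Ilp5, which include the peptides of the insulin-producing brain cells, had none. Both genes for secreted proteins that bind the peptides had summits, ImpL2 with 3 and Sdr with 1 of signal 129. In the receptor branch 7 of 9 genes had a summit. Pdk1, melt and sgg had strong summits at their start sites, with signals of 441, 359 and 502, and Akt had one of 223 at 684 bp. Lnk and Pi3K92E had none.

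Of the 8 genes for TOR complexes, Rheb and its inhibitors, 2 had a summit in the window and 0 at a start site. The window of Tor, the kinase itself, held a summit of 93 nearer to Ube4B, and that of Lst8 held one of 144 nearer to Gga. The genes raptor, rictor, Sin1, Rheb, Tsc1 and gig had none. Of 12 genes for amino acid sensing and transport, 8 had a summit but 3 at a start site, the strongest at mnd, an amino acid transporter, with 721 at 196 bp and ranks of 101 and 34 in replicates 3 and 4. All 7 energy sensing genes, the AMPK subunits among them, had a summit in the window and 2 at a start site. The strongest of these, 534 in the window of Lkb1, was nearer to flfl, and the strongest summit was nearest to the gene's own start site at SNF4Agamma (273) and Sik3 (199) and nearer to another gene's at the other 5.

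In the hypoxia and REDD class 4 of 5 genes had a summit, and all 4 at a start site. The strongest was at scyl, which encodes a REDD protein that inhibits TOR under hypoxia and starvation, with 826, 114 bp from its start site and at ranks 35 and 363 in replicates 3 and 4. Hph, the prolyl hydroxylase that marks Sima for destruction, had one of 259. Of 8 genes for transcription and translation outputs, 5 had a summit in the window but 3 at a start site, among them trbl with 581 and eIF4E1 with 364.

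**Figure D4:**
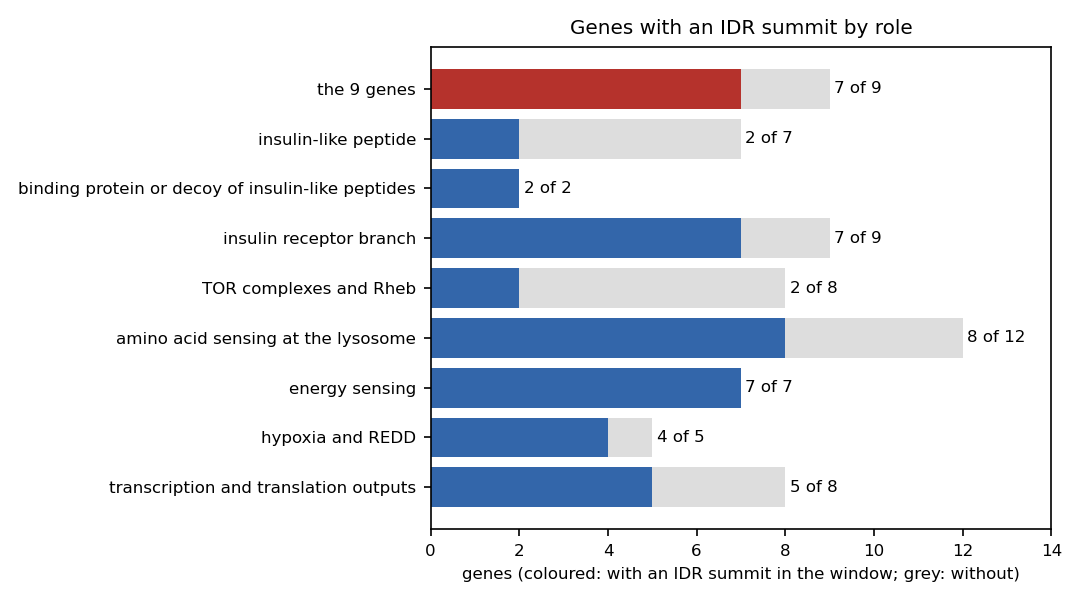
Number of genes with an IDR summit in the window (coloured) and without (grey), for the 9 genes and for the 58 other pathway genes by role. The receptor branch shows 7 of 9 and energy sensing 7 of 7, and the TOR complexes show 2 of 8.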

How the data were processed

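Anti-GFP ChIP-seq of tagged Dif was deposited for 2 replicates of 1 group as peak lists in dm6 and dm3. The dm6 lists were used, since the members are placed in dm6. Per the deposited listings, the relaxed lists, of 30000 peaks and background regions each, come from each replicate and from both together, and the IDR list is a thresholded list over both. The aligner and peak caller are not given in these sources. The authors' deposited signal per peak has no stated scaling and was used within a list. The −log10 of q is the authors' deposited value. No read counts are in these lists, so depth is unknown.

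Genes came from Ensembl release 115, and 99.5% of annotated first codons read ATG in the Release 6 sequence. A summit was matched within 100 bp. Of 59 pathway genes listed, 58 were found. Analyses used Python 3.11.15 and NumPy 2.4.6, and counting steps were tested on simulated data. All 9 members are named, with the strongest pathway gene of each role, except where it is not reported here, and a few others chosen after their values were seen. The members and lists were chosen with earlier results of these data known, and no test was made. Alternatives changed the window, the peak list, the replicate, the match distance and the motif window, and the 5-letter GA run was added after seeing the data. The dm3 lists were not analysed here.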

Additional observations from a re-analysis of the deposited data

How the results depend on the processing

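The count of members kept within 1 of its value. That of the other pathway genes moved with the window and the peak list, as did the share over all protein-coding genes. Both lists of genes were chosen with earlier results of these data known, so the steadiness of the members may come from that choice. The 7 members with an IDR summit became 6 to 8 with windows of 0 to 10 kb each side, with the stronger IDR peaks, with the nearest start site only and with each replicate alone (7 without replicate 3 and 8 without replicate 4). The gene body alone loses Thor, and the stronger peaks lose Ilp6. Replicate 4 alone loses Ilp6, and each replicate alone gains S6k. The 29 summits became 12 within 500 bp of a start site and 30 to 36 with 1 replicate. The 37 other pathway genes became 17 with the gene body alone, 23 at 1 kb, 20 within 500 bp of a start site, 24 with the stronger IDR peaks, 21 with the nearest start site only and 34 to 37 with 1 replicate. Over all protein-coding genes the share with a summit, 38.4%, became 12.1% with the gene body alone, 22.5% at 1 kb, 53% at 10 kb, 15.3% within 500 bp of a start site, 22.5% with the stronger IDR peaks, 16.5% with the nearest start site only and 38.4% and 38.7% without replicates 3 and 4. Relaxed regions fell to 56 of 153 in the pooled list, 66 of 145 in replicate 3 and 84 of 148 in replicate 4 at q of at most 0.01. The 15 summits with GAGAGAG became 23 with the 5-letter run. Within 50 and 250 bp, GTAAACA was at 1 and 5 summits, CAGCTG at 1 and 11 and ACGTG at 4 and 16. Within 250 bp CACGTG was at 2, TGANTCA at 2 and the κB motif at 1. No paired analysis was possible because there is 1 group. With no read counts, a weak peak of 1 replicate cannot be told from one missed for depth.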
